A study of Sus scrofa with 18 samples.

Results

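ATP-binding cassette (ABC) transporters are membrane proteins that spend ATP to carry lipids, drugs, porphyrins, fatty acids and other substrates across a membrane. The account follows 5 of them, ABCA1, ABCB1, ABCB6, ABCC6 and ABCD3, through early and mid pregnancy in the pig endometrium, the lining of the uterus. The members were taken from the platform annotation as every probe set (a group of short probes for 1 transcript) that carries only the symbol of a named gene. That gave 12 probe sets for the 5 genes, out of 24123 probe sets on the array, where 6765 genes have a probe set of their own.

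The endometrium came from Yorkshire gilts, a Western breed of smaller litters, and Meishan gilts, a prolific Chinese breed, each mated to boars of their own breed. Samples were taken on gestational days (GD) 15, 26 and 50, which gave the groups Yorkshire GD15, Yorkshire GD26, Yorkshire GD50, Meishan GD15, Meishan GD26 and Meishan GD50, each with 3 arrays of the Affymetrix porcine GeneChip. Each array held RNA pooled from a conceptus attachment site of each of 2 gilts, and the same 2 animals gave all 3 pools of their group. The p-values below therefore reflect how far attachment sites varied, with no measure of variation among animals.

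In the uterus, ABC transporters work on the surface between mother and conceptus and inside its cells. ABCA1 loads cholesterol and phospholipid onto apolipoproteins at the cell surface. ABCB1, or P-glycoprotein, pumps drugs and other foreign compounds out of cells and is known as a barrier protein of the placenta. ABCB6 carries porphyrins, the precursors of heme. ABCC6 is needed for the release of ATP from cells, which feeds the extracellular pyrophosphate that holds back calcification. ABCD3 sits in the peroxisome membrane and brings in long-chain acyl compounds and bile acid intermediates for breakdown.

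Values are log2 intensities as deposited, and an intensity of 100, which is 6.64 on the log2 scale, is taken here as the lowest level that can be read. A probe set was tested where it passed 100 on at least 6 of the 18 arrays, which 9320 probe sets did. Of the 12 probe sets of the transporters, 7 did so, with at least 1 for each of the 5 genes, and the other 5 are given by value. ABCC6 passed through exactly the 6 arrays of GD26, and ABCA1 through the 9 Yorkshire arrays and 1 Meishan GD50 array, so for these genes a difference between groups was built into passing. The words rose and fell are kept for an adjusted p under 0.05 (limma, Benjamini-Hochberg over the 9320). If the dimmer group stayed under 100 on each of its arrays, the fold was computed against 100 and is a lower limit, and between 2 groups under 100 there is no fold. Changes and differences are on the log2 scale, with the SE of the fit after ±.

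The 6 arrays of Yorkshire GD26 and Yorkshire GD50 stood apart from the other 12. Their medians over the tested probe sets were 7.78 to 8.13, against 8.31 to 8.40 on the other arrays, and their hybridization controls, RNAs added in fixed amounts, averaged 12.10 to 13.89, against 10.51 to 11.80. This split runs along the groups, so for the change between GD15 and GD26 in Yorkshire and for the breeds at GD26 and GD50 an array effect and a group effect cannot be told apart. The 2 Meishan steps do not use these arrays. The difference between the breeds at GD15 does not either, but its SE and p-value come from the fit over all 6 groups. Epithelial markers fixed for the tissue check, such as KRT8, EPCAM and the uteroferrin gene ACP5, all passed 100 on every GD15 array in both breeds. Trophoblast markers moved with the day. Summed over the 9 on the array they gave an intensity of 309 to 370 in Yorkshire and 355 to 444 in Meishan at GD15, where 8 of the 9 were under 100 on all arrays, and only GATA2 was above. At GD26 the sum was 74375 to 89758 in Yorkshire and 40756 to 75115 in Meishan, and at GD50 it was 46737 to 66168 in Yorkshire and 71143 to 88657 in Meishan. Smooth muscle markers rose at GD26 too, 3 of 3 tested in each breed, with sums of 10868 to 12014 at GD26 and 4781 to 6007 at GD15 in Yorkshire, and of 14421 to 15864 at GD26 and 6756 to 7692 at GD15 in Meishan. So did the 2 tested leukocyte markers, AIF1 and CD163, in each breed. The other leukocyte markers on the array, CD2, CD14, PTPRC and CD3E, did not pass the filter. They averaged under 100 at GD15 and GD26 in both breeds, CD2 lower at GD26 in each, so leukocytes as a whole are not read. Of the 9 epithelial markers 3 rose and 5 fell in Yorkshire, and 4 rose and 3 fell in Meishan, and SAL1 fell below 100 in both breeds, to 3.46 at GD26, against 10.80 at GD15, in Yorkshire and to 4.16, against 10.59, in Meishan. Over all tested probe sets, 20.3% rose and 44.9% fell between GD15 and GD26 in Yorkshire, and 23.8% and 27.1% in Meishan. The epithelial counts, with moves both ways, are therefore not read as a shift of that cell type. Trophoblast and smooth muscle markers, AIF1, CD163 and SAL1 thus moved with the same step as the transporters described below. The part of any of these markers in the transporters' changes was not tested. In such bulk tissue, fewer cells of a type and less RNA per cell cannot be told apart.

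ABCA1, the cholesterol exporter, was read by 1 probe set and separated the breeds on every day. In Yorkshire it measured 7.81, 7.51 and 7.21 at GD15, 9.07, 9.33 and 8.67 at GD26, and 8.45, 8.20 and 8.48 at GD50. In Meishan it measured 4.02, 3.65 and 3.65 at GD15, 6.28, 6.08 and 6.48 at GD26, and 6.76, 5.78 and 6.47 at GD50. All 9 Yorkshire arrays were above 100 and above all 9 Meishan arrays, of which 8 were under 100. At GD15 the Yorkshire level was at least 1.83-fold the Meishan one, with a fitted difference of 3.74 ± 0.24 (SE, adjusted p = 4.94e-08, limma). At GD26 it was at least 5.19-fold higher, with a fitted difference of 2.74 ± 0.24 (adjusted p = 3.64e-07). At GD50, where 1 of the 3 Meishan arrays passed 100, no fold is given, and the fitted difference was 2.04 ± 0.24 (adjusted p = 7.64e-06). Over the 3 scalings of the arrays to each other the fitted difference was 3.07 to 3.74 at GD15, 3.10 to 3.35 at GD26 and 2.45 to 2.63 at GD50. With values under 100 set to 100 it was 0.87 at GD15, 2.38 at GD26 and 1.69 at GD50. The call was kept on each day under all of these, but a difference between the breeds was built into passing the filter, as stated above.

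**Figure D1:**
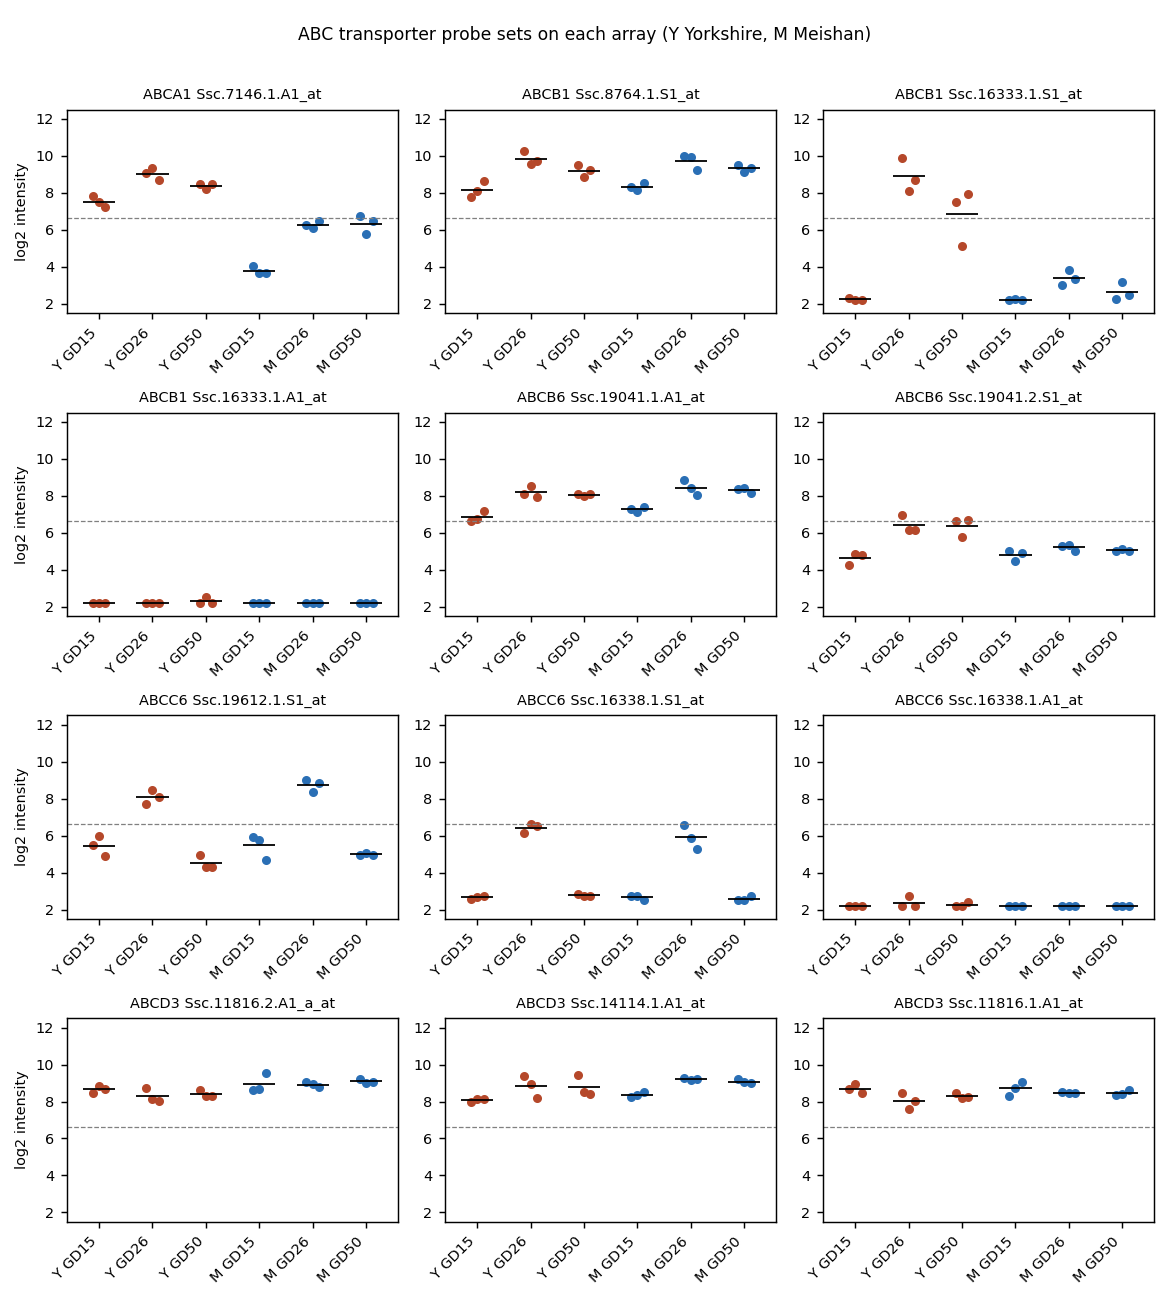
Log2 intensity (y axis) of the 12 transporter probe sets on each array, titled by gene and probe set and ordered within a gene by brightness, for Yorkshire (Y, red) and Meishan (M, blue) by gestational day (x axis). Points are arrays, black bars are group means (n = 3), and the dashed line is an intensity of 100; ABCA1 lies higher on all Yorkshire arrays, and the 2 brighter ABCC6 probe sets peak at GD26 in both breeds.

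ABCA1 also rose between GD15 and GD26 in Yorkshire, by 1.51 ± 0.22 (2.85-fold, adjusted p = 0.000304), and no GD26 array overlapped a GD15 array. In Meishan the fitted change was 2.50 ± 0.24 (adjusted p = 2.8e-05), but all 6 arrays lay under 100, and with values under 100 set to 100 nothing was left of it. ABCA1 did not pass the test between GD26 and GD50 in either breed, with a change of -0.64 ± 0.22 in Yorkshire (adjusted p = 0.0892) and 0.06 ± 0.24 in Meishan (adjusted p = 0.897). In order of level, Yorkshire GD26 (9.02 ± 0.33, SD, n = 3) came before Yorkshire GD50 (8.38 ± 0.15) and Yorkshire GD15 (7.51 ± 0.30), with no overlap between neighbours. The 3 Meishan groups lay below these, and with 8 of 9 arrays under 100 they have no order among themselves. The genes whose pattern over the 18 median-centred arrays was most like that of ABCA1 were DYNC2LI1, MAP3K3 and SLC25A17, with Pearson correlations of 0.942, 0.928 and 0.925. These correlations, like those given for the other transporters, are descriptive, since the arrays share their groups.

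The list of other cholesterol handling genes held 24 genes, of which 13 were tested. Between GD15 and GD26, 6 rose and 2 fell in Yorkshire, where 20.3% of all tested probe sets rose and 44.9% fell, and the median change was 0.43, against -0.47 over all. In Meishan 7 rose and 1 fell, where 23.8% and 27.1% of all did, with a median of 0.68, against -0.06 over all. PLTP, the plasma phospholipid transfer protein, moved most. It averaged 12.79 ± 0.26 at GD26 and 6.77 ± 0.01 at GD15 in Yorkshire (SD, n = 3 each), a rise of 6.02 ± 0.21 (adjusted p = 3.63e-08), and in Meishan it rose by 2.29 ± 0.26 (adjusted p = 8.48e-05). LPCAT3, which puts polyunsaturated chains into membrane phospholipids, rose by 2.95 ± 0.31 in Yorkshire (adjusted p = 3.31e-05) and by 2.12 ± 0.30 in Meishan (adjusted p = 0.000344). LIPA, the lysosomal lipase that frees cholesterol from its esters, went the other way and fell by 2.05 ± 0.16 in Yorkshire (adjusted p = 5.78e-06) and by 1.79 ± 0.15 in Meishan (adjusted p = 9.77e-06). Between GD26 and GD50, 2 of the 13 rose and 5 fell in Yorkshire, against 5.72% and 7.85% of all, and 3 rose and 3 fell in Meishan, against 8.20% and 10.2%. Of the 13, 1 was higher and none was lower in Yorkshire at GD15, 2 were higher and 4 lower at GD26, and 1 was higher and 5 lower at GD50. Over all tested probe sets, 4.92% were higher and 4.87% lower in Yorkshire at GD15, 10.7% and 42.5% at GD26, and 10.9% and 45.6% at GD50, so the lower genes of these 2 days were no more frequent in the list than on the array.

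ABCB1, the drug efflux pump, was read above 100 on all 18 arrays by the brightest of its 3 probe sets and rose there at GD26 in both breeds. In Yorkshire it measured 7.77, 8.11 and 8.64 at GD15, 10.24, 9.58 and 9.73 at GD26, and 9.49, 8.84 and 9.25 at GD50. The Meishan arrays gave 8.30, 8.15 and 8.53 at GD15, 9.98, 9.95 and 9.26 at GD26, and 9.52, 9.10 and 9.35 at GD50. In each breed all arrays of GD26 and GD50 lay above those of GD15. The rise between GD15 and GD26 was 1.68 ± 0.28 in Yorkshire (3.20-fold, adjusted p = 0.000618) and 1.40 ± 0.21 in Meishan (2.64-fold, adjusted p = 0.00048). The later step did not pass the test, at -0.66 ± 0.28 in Yorkshire (adjusted p = 0.151) and -0.40 ± 0.21 in Meishan (adjusted p = 0.23). The breeds overlapped on every day, and the difference had a 95% interval of -0.70 to 0.39 at GD15, -0.42 to 0.67 at GD26 and -0.68 to 0.41 at GD50.

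The next probe set of ABCB1 is given by value only, since it passed 100 on 5 arrays, all of Yorkshire GD26 or GD50. In Yorkshire it measured 2.30, 2.20 and 2.20 at GD15, 9.91, 8.10 and 8.67 at GD26, and 7.50, 5.10 and 7.94 at GD50. The Meishan arrays gave 2.20, 2.24 and 2.20 at GD15, 3.03, 3.85 and 3.33 at GD26, and 2.24, 3.16 and 2.49 at GD50. The probe set was thus near the bottom of the scale on all Meishan arrays and bright on the Yorkshire arrays of GD26 and on 2 of the 3 of GD50. Its correlation with the brightest probe set over the 18 arrays was 0.605. Correlations between probe sets of the same gene were taken on the deposited values, without median-centring. The third did not exceed 2.50 on any array. SMPDL3A, ENC1 and IDH1 were most like the brightest ABCB1 probe set, at 0.946, 0.942 and 0.940.

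Among 17 further genes of drug and steroid handling, 4 were tested. SULT1E1, which sulfates and so inactivates estrogens, averaged 11.95 at GD26, against 3.02 at GD15 in Yorkshire, a rise of at least 39.5-fold (adjusted p = 2.35e-08). In Meishan it averaged 11.58 at GD26 and 5.71 at GD15, where 1 of the 3 arrays was above 100, a fitted rise of 5.87 ± 0.45 (adjusted p = 6.48e-06). At GD50 it was back under 100 in both breeds, at least 39.5-fold lower than at GD26 in Yorkshire (adjusted p = 2.79e-07) and at least 30.5-fold lower in Meishan (adjusted p = 3.2e-06). SULT1E1 passed the filter through 7 arrays, all those of GD26 and 1 of Meishan GD15. A difference between the days was thus built into its passing. POR, the electron donor of the cytochrome P450 enzymes, rose between GD15 and GD26 by 2.09 ± 0.24 in Yorkshire (adjusted p = 6.29e-05) and by 1.12 ± 0.15 in Meishan (adjusted p = 0.000236). These were the 2 that rose in each breed. In Yorkshire none of the 4 fell, and in Meishan 2 fell, where 20.3% of all tested probe sets rose and 44.9% fell in Yorkshire and 23.8% and 27.1% in Meishan. Between GD26 and GD50, 3 of the 4 fell in Yorkshire and 2 in Meishan, against 7.85% and 10.2% of all, and none rose.

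ABCB6, the porphyrin carrier, rose at GD26 in both breeds and had no call between GD26 and GD50. The brighter of its 2 probe sets measured 6.62, 6.72 and 7.16 at GD15, 8.08, 8.51 and 7.95 at GD26, and 8.07, 7.99 and 8.11 at GD50 in Yorkshire. In Meishan it measured 7.30, 7.10 and 7.40 at GD15, 8.85, 8.41 and 8.03 at GD26, and 8.37, 8.40 and 8.16 at GD50. Arrays of GD26 and GD50 overlapped in each breed, and none of them reached down to GD15. The rise between GD15 and GD26 was 1.35 ± 0.21 in Yorkshire (2.55-fold, adjusted p = 0.000368) and 1.17 ± 0.20 in Meishan (2.25-fold, adjusted p = 0.00101). Between GD26 and GD50 the change was -0.12 ± 0.21 in Yorkshire (95% interval -0.59 to 0.34) and -0.12 ± 0.20 in Meishan (-0.57 to 0.33). The breeds did not pass the test on any day, with differences of -0.43 ± 0.21 at GD15, -0.25 ± 0.21 at GD26 and -0.25 ± 0.21 at GD50. The second probe set of ABCB6 passed 100 on 2 arrays only. It ran from 4.25 to 6.94 in Yorkshire and from 4.45 to 5.31 in Meishan, its highest values being those of Yorkshire GD26 and GD50, and it correlated with the first at 0.525. MDH2, PTPMT1 and HMGCS1 were most like ABCB6, at 0.963, 0.962 and 0.958.

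Of 17 genes of heme and porphyrin handling, 9 were tested, and between GD15 and GD26 5 rose and 2 fell in each breed, against 20.3% and 44.9% of all tested probe sets in Yorkshire and 23.8% and 27.1% in Meishan. The median change was 0.64 in Yorkshire and 0.67 in Meishan, against -0.47 and -0.06 over all tested probe sets of these breeds. ALAS1, the first enzyme of heme synthesis, rose by 2.04 ± 0.25 in Yorkshire (adjusted p = 0.000104) and by 1.74 ± 0.31 in Meishan (adjusted p = 0.00125). The 2 heme oxygenases, which break heme down, went opposite ways. HMOX1, the inducible one, averaged 10.97 at GD26 and 5.52 at GD15 in Yorkshire, at least 20.1-fold higher (adjusted p = 1.4e-06), and 10.06 and 5.65 in Meishan, at least 10.7-fold higher (adjusted p = 3.59e-06). HMOX1 passed the filter through 8 arrays, all those of GD26 and 2 of Yorkshire GD50, so a difference between the days was built into passing. HMOX2, the constitutive one, fell by 2.14 ± 0.24 in Yorkshire (adjusted p = 4.74e-05) and by 1.42 ± 0.13 in Meishan (adjusted p = 1.69e-05). By GD50 HMOX1 had fallen again, by 3.85 ± 0.34 in Yorkshire (adjusted p = 0.000158) and at least 10.7-fold in Meishan (adjusted p = 7.61e-05), while ABCB6 had no call at that step. Over the list, 2 rose and 3 fell at that step in Yorkshire, against 5.72% and 7.85% of all, and 3 rose and 3 fell in Meishan, against 8.20% and 10.2%.

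ABCC6, needed for ATP release, was high at GD26 and under 100 on all arrays of the other days in both breeds. The brightest of its 3 probe sets measured 5.50, 6.0 and 4.88 at GD15, 7.69, 8.46 and 8.11 at GD26, and 4.97, 4.31 and 4.31 at GD50 in Yorkshire. Meishan values were 5.93, 5.77 and 4.70 at GD15, 9.0, 8.37 and 8.83 at GD26, and 4.97, 5.05 and 4.97 at GD50. In Yorkshire the GD26 level was at least 2.71-fold that of GD15 (fitted change 2.62 ± 0.32, adjusted p = 9.47e-05), and GD50 was at least 2.71-fold lower than GD26 (fitted change -3.56 ± 0.32, adjusted p = 0.000173). In Meishan GD26 was at least 4.25-fold higher than GD15 (3.27 ± 0.30, adjusted p = 1.87e-05), and GD50 was at least 4.25-fold lower than GD26 (-3.74 ± 0.30, adjusted p = 5.51e-05). ABCC6 was the only one of the 7 tested transporter probe sets with a call between GD26 and GD50, in either breed. A difference between GD26 and the other days was built into its passing the filter, as stated above.

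Between the breeds ABCC6 did not pass the test at GD26, at -0.65 ± 0.33 (95% interval -1.35 to 0.05, adjusted p = 0.106), and both breeds were under 100 at GD15 and GD50. With values under 100 set to 100 the same difference passed (-0.65 ± 0.17, adjusted p = 0.00451), as did the difference in change between GD15 and GD26 (-0.65 ± 0.24, adjusted p = 0.0427), whereas over the 3 scalings the GD26 difference was -0.34 to 0.05 with no call. The second probe set of ABCC6 passed 100 on no array but followed the first, with a correlation of 0.931. It measured 6.13, 6.62 and 6.54 in Yorkshire and 6.58, 5.88 and 5.26 in Meishan at GD26, and at GD15 and GD50 it lay between 2.52 and 2.84 in both breeds. The platform annotation gives this probe set to ABCC6, whereas another annotation of the same array gives it to ABCC1, the neighbouring gene of the pig genome, so its identity is uncertain. The third was at the bottom of the scale, with group means of 2.18 to 2.37. OXCT1, SULT1E1 and B4GALT5 were most like ABCC6, at 0.938, 0.935 and 0.925, and SULT1E1 is the gene of the drug and steroid list described above with the same peak at GD26. ABCC6 passed the filter only, and SULT1E1 largely, through the GD26 arrays, so this shared peak was built into their passing.

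Of 13 genes of tissue mineralization, 5 were tested. Between GD15 and GD26, 2 rose and 2 fell in Yorkshire, against 20.3% and 44.9% of all tested probe sets, and 3 rose and 1 fell in Meishan, against 23.8% and 27.1%, with median changes of -0.46 in Yorkshire and 1.87 in Meishan, against -0.47 and -0.06 over all tested probe sets of these breeds. MGP, an inhibitor of calcification, rose by 2.52 ± 0.23 in Yorkshire (adjusted p = 1.61e-05) and by 2.09 ± 0.45 in Meishan (adjusted p = 0.00365). SPP1, or osteopontin, which is also among the epithelial markers, rose by 2.64 ± 0.36 in Yorkshire (adjusted p = 0.000177) and by 3.07 ± 0.74 in Meishan (adjusted p = 0.00664). ALPL, the phosphatase that breaks down pyrophosphate, fell by 3.33 ± 0.39 in Yorkshire (adjusted p = 6.99e-05) and by 2.94 ± 0.36 in Meishan (adjusted p = 0.000131). None of the 3 moved back at GD50 with a call. The only call among the 5 at that step was MGP in Meishan, which rose further by 1.63 ± 0.45 (adjusted p = 0.0339), lost without Meishan GD50 replicate 1, 2 or 3 (1.58 to 1.66).

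ABCD3, the peroxisomal transporter, was bright on all 18 arrays through 3 probe sets, which did not move together. The second brightest measured 7.98, 8.11 and 8.13 at GD15, 9.37, 8.93 and 8.19 at GD26, and 9.44, 8.50 and 8.38 at GD50 in Yorkshire, and 8.22, 8.34 and 8.49 at GD15, 9.27, 9.16 and 9.20 at GD26, and 9.21, 9.03 and 8.99 at GD50 in Meishan. It rose between GD15 and GD26 in Meishan by 0.86 ± 0.13 (1.82-fold, adjusted p = 0.00042), a call not shared by the mean of the 3 probe sets (0.20, adjusted p = 0.353), and in Yorkshire the change of 0.76 ± 0.34 did not pass the test (adjusted p = 0.0761). That Yorkshire change did pass without Yorkshire GD26 replicate 3, the lowest of its group (1.07 ± 0.32, adjusted p = 0.0185), and under all 3 scalings of the arrays (1.10 to 1.21). The dimmest of the 3 measured 8.70, 8.93 and 8.47 at GD15, 8.46, 7.62 and 8.04 at GD26, and 8.48, 8.17 and 8.25 at GD50 in Yorkshire. It fell between GD15 and GD26 in Yorkshire by 0.66 ± 0.23 (adjusted p = 0.0321), a call that was lost under the 3 scalings (-0.29 to -0.17) and without Yorkshire GD15 replicate 1 or 2 or Yorkshire GD26 replicate 2 or 3 (-0.66 to -0.45). In Meishan it ran from 8.29 to 9.08 with no call, at -0.22 ± 0.19 for this step (adjusted p = 0.359), although it fell by 0.43 without Meishan GD15 replicate 1 (adjusted p = 0.0461).

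The brightest probe set of ABCD3 did not pass the test at either step in either breed but was lower in Yorkshire. At GD26 it measured 8.74, 8.16 and 8.01 in Yorkshire and 9.04, 8.93 and 8.78 in Meishan, a difference of -0.62 ± 0.23 (adjusted p = 0.035). At GD50 it measured 8.62, 8.32 and 8.29 in Yorkshire and 9.24, 9.0 and 9.08 in Meishan, a difference of -0.70 ± 0.23 (adjusted p = 0.0183). The breeds did not overlap on either day, but the differences are close to the shift of all tested probe sets, whose medians were -0.42 at GD26 and -0.46 at GD50, and under the 3 scalings they came to -0.31 to -0.18 and -0.33 to -0.22, with no call. The GD26 call was also lost without Meishan GD26 replicate 1 or 2 or Yorkshire GD26 replicate 2 or 3 (-0.61 to -0.47), and the GD50 call without Meishan GD50 replicate 1 or Yorkshire GD50 replicate 2 or 3 (-0.65 to -0.63). Without Yorkshire GD26 replicate 1, in contrast, the brightest probe set fell between GD15 and GD26 in Yorkshire (-0.58, adjusted p = 0.0214), and the other two were lower in Yorkshire at GD26 (-0.65 each). Without Yorkshire GD50 replicate 1 the second brightest was lower in Yorkshire at GD50 (-0.63). The correlation of the brightest probe set with the dimmest was 0.699 and with the second brightest 0.346, and between those 2 it was -0.148. PRKAR1A, AZIN1 and EGLN1 were most like ABCD3, at 0.861, 0.835 and 0.816, lower than for the other transporters.

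Of 30 peroxisome genes 14 were tested, and between GD15 and GD26 3 rose and 5 fell in Yorkshire, and 4 rose and 4 fell in Meishan. With 20.3% of all tested probe sets higher and 44.9% lower in Yorkshire, and 23.8% and 27.1% in Meishan, these counts show nothing particular to the list. The 3 with the largest mean change among those called in both breeds were PHYH, AMACR and ACOX2, and all 3 fell. PHYH, which starts the breakdown of phytanic acid, averaged 12.11 ± 0.10 at GD26 and 14.02 ± 0.07 at GD15 in Yorkshire, a fall by 1.91 ± 0.17 (adjusted p = 1.42e-05), and fell by 1.99 ± 0.15 in Meishan (adjusted p = 5.43e-06). AMACR, a racemase of branched-chain acyl-CoA, fell under 100 at GD26 in both breeds, at least 1.51-fold in Yorkshire (adjusted p = 0.0135) and at least 3.45-fold in Meishan (adjusted p = 5.69e-06). AMACR passed the filter through exactly the 6 arrays of GD15, so its fall was built into passing. The Yorkshire call of AMACR was also lost with cyclic loess scaling (adjusted p = 0.0766) and with no filter (adjusted p = 0.069). ACOX2, the oxidase of bile acid intermediates, fell at least 3.97-fold in Yorkshire (adjusted p = 0.000202) and by 1.00 ± 0.22 in Meishan (adjusted p = 0.00407). ACOX2 was higher again at GD50 than at GD26, at least 2.50-fold in Yorkshire (adjusted p = 0.00822) and by 0.78 ± 0.22 in Meishan (adjusted p = 0.036), where 5 of the 6 arrays each ended the call when left out, all but Meishan GD26 replicate 2 (0.67 to 0.84). At that step 2 of the 14 rose and 2 fell in Yorkshire, against 5.72% and 7.85% of all tested probe sets, and 4 rose and 2 fell in Meishan, against 8.20% and 10.2%.

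**Figure D2:**
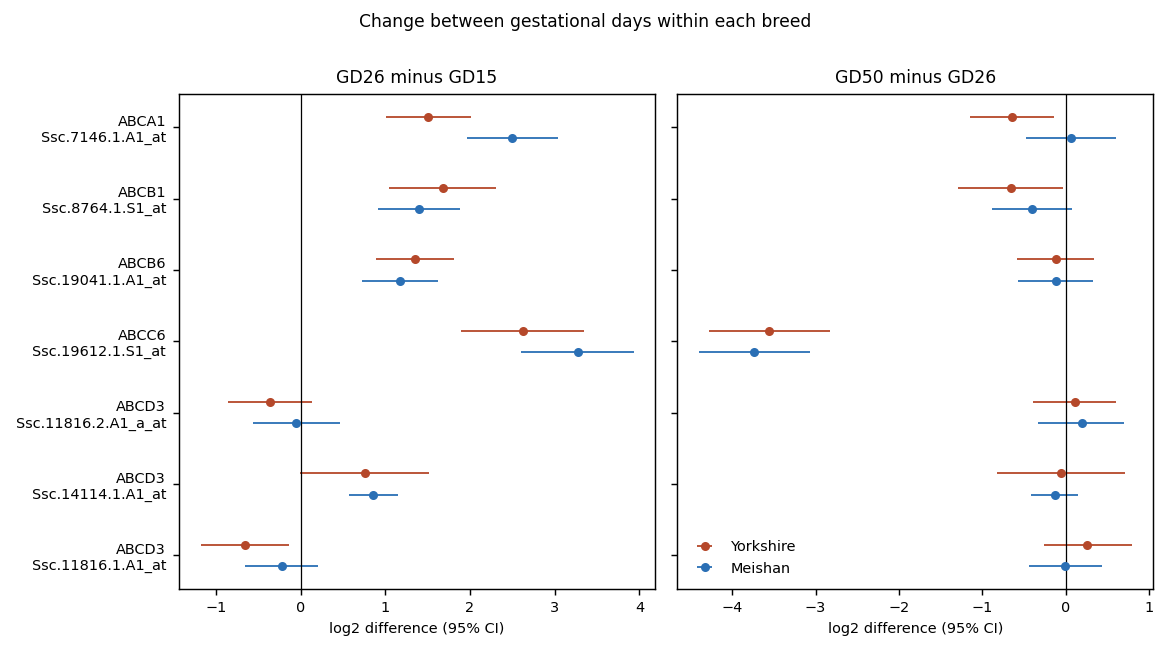
Log2 difference (x axis) of the 7 tested transporter probe sets (y axis) between GD26 and GD15 and between GD50 and GD26, for Yorkshire (red) and Meishan (blue). Points are limma estimates from 3 arrays a group and bars their 95% confidence intervals; the intervals of ABCA1, ABCB1, ABCB6 and ABCC6 lie above 0 in the first step in both breeds (ABCA1 in Meishan from arrays under 100), and in the second step those of ABCC6 lie below -2 in both.

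Over the 7 tested probe sets, the step between GD15 and GD26 gave 4 higher and 1 lower in Yorkshire, where 20.3% of all tested probe sets were higher and 44.9% lower. In Meishan it gave 5 higher, ABCA1 with all arrays under 100 among them, and none lower, against 23.8% and 27.1% of all. Between GD26 and GD50, none was higher and 1 lower in Yorkshire, against 5.72% and 7.85% of all, and none was higher and 1 lower in Meishan, against 8.20% and 10.2%. Between the breeds, 1 was higher and none lower in Yorkshire at GD15, against 4.92% and 4.87% of all. At GD26 1 was higher and 1 lower, against 10.7% and 42.5%, and at GD50 1 was higher and 1 lower, against 10.9% and 45.6%. The 3 probe sets of ABCD3 share a gene, and ABCA1 and ABCC6 passed the filter only through the groups where they were high, so these counts are a description only.

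**Figure D3:**
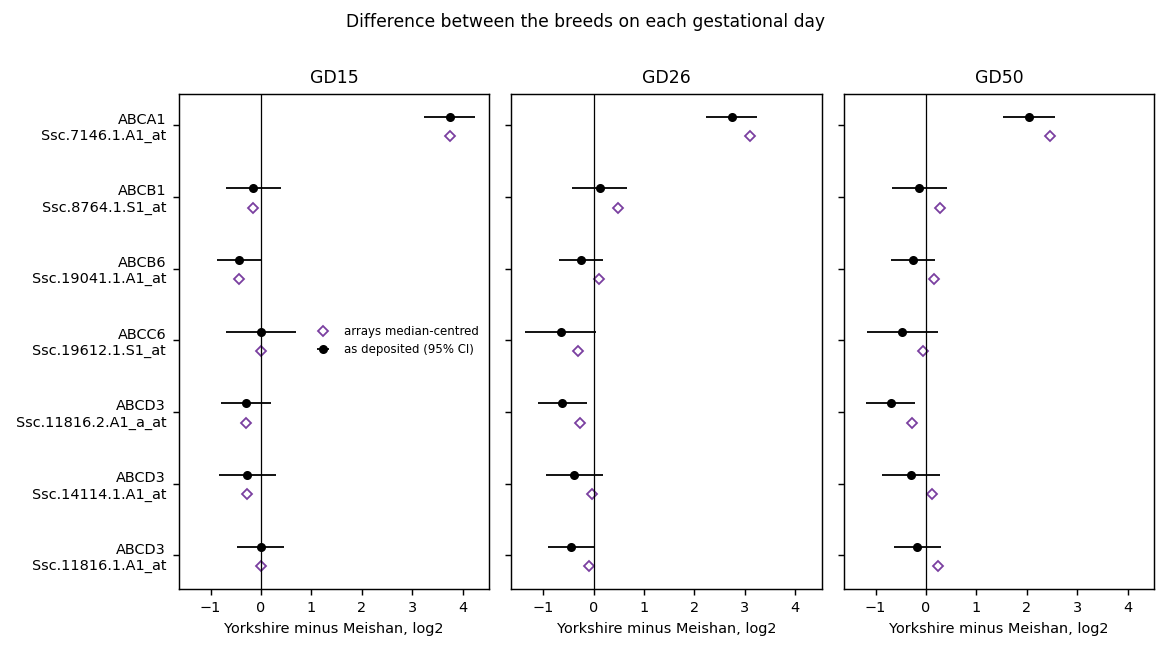
Yorkshire minus Meishan on the log2 scale (x axis) for the 7 tested transporter probe sets (y axis) at GD15, GD26 and GD50. Black points are the deposited values with 95% confidence intervals (n = 3 arrays a group) and purple diamonds the same differences after each array was centred on its median; ABCA1 lies at 3.74, 2.74 and 2.04 and all others within 1 of 0.

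Whether the breeds differed in their change was tested directly. For the step between GD15 and GD26, ABCA1 was the only 1 of the 7 with a call. Its fitted rise was 0.99 ± 0.34 smaller in Yorkshire (adjusted p = 0.033). Over all tested probe sets, the Yorkshire change minus the Meishan change was positive with a call in 8.70% and negative with a call in 26.8%. A larger fall in Yorkshire also counts as negative. All 6 Meishan arrays in the ABCA1 comparison were under 100, and its sign turned with values under 100 set to 100, to 1.51 ± 0.23 (adjusted p = 0.00013). Under the 3 scalings it was -0.64 to 0.28 with no call, and the call was also lost without Meishan GD15 replicate 2 or 3, Meishan GD26 replicate 1 or 3, Yorkshire GD15 replicate 1 or 2, or Yorkshire GD26 replicate 3 (-0.99 to -0.82). For the others the difference had 95% intervals of -0.50 to 1.06 for ABCB1, -0.44 to 0.80 for ABCB6 and -1.63 to 0.34 for ABCC6. For the step between GD26 and GD50 none of the 7 had a call, against 2.05% and 2.32% of all, with intervals of -1.43 to 0.02 for ABCA1, -1.03 to 0.52 for ABCB1, -0.62 to 0.62 for ABCB6 and -0.81 to 1.17 for ABCC6.

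Of the rest of the ABC family, 43 genes were listed, 10 had a probe set and 4 could be tested. Between GD15 and GD26, 2 of the 4 rose and 1 fell in each breed, against 20.3% and 44.9% of all tested probe sets in Yorkshire and 23.8% and 27.1% in Meishan. ABCG2, the breast cancer resistance protein, a drug and porphyrin exporter, measured 10.47, 10.12 and 10.31 at GD15, 11.81, 11.28 and 11.36 at GD26, and 9.88, 9.35 and 9.90 at GD50 in Yorkshire. It rose there by 1.18 ± 0.22 (adjusted p = 0.00116) and then fell by 1.77 ± 0.22 (adjusted p = 0.000911), with no overlap between the days. In Meishan it measured 11.29, 11.11 and 11.05 at GD15, 11.78, 11.54 and 10.89 at GD26, and 10.87, 10.64 and 10.71 at GD50, with changes of 0.26 and -0.67 that did not pass the test. Both passed without Meishan GD26 replicate 3, at 0.52 and -0.93 (adjusted p = 0.0271 and 0.00718). The rise of ABCG2 between GD15 and GD26 was larger in Yorkshire by 0.93 ± 0.31 (adjusted p = 0.0305), a call lost without Meishan GD15 replicate 1, Meishan GD26 replicate 3, Yorkshire GD15 replicate 2 or 3, or Yorkshire GD26 replicate 1 (0.67 to 0.93). ABCG2 thus shared with ABCC6 a peak at GD26 in Yorkshire, from a level well above 100 on all days. Between the breeds ABCG2 did not pass the test at GD26 (0.08 ± 0.22, adjusted p = 0.786). It was lower in Yorkshire at GD15 (-0.85 ± 0.22, adjusted p = 0.0205), a call kept in 2 of 6 fits with 1 array left out. At GD50 it was also lower in Yorkshire (-1.03 ± 0.22, adjusted p = 0.00116).

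TAP1, which carries peptides into the endoplasmic reticulum for antigen presentation, moved the other way from ABCA1, ABCB1, ABCB6 and ABCC6. In Yorkshire it measured 7.84, 8.14 and 8.16 at GD26 and 10.92, 10.40 and 10.37 at GD15, a fall by 2.52 ± 0.25 (adjusted p = 2.21e-05). In Meishan it measured 8.33, 8.42 and 8.83 at GD26 and 10.09, 10.40 and 8.77 at GD15, where the groups overlapped, a fall by 1.23 ± 0.36 (adjusted p = 0.0172). The Meishan fall was lost without Meishan GD15 replicate 1 or 2 or Meishan GD26 replicate 1 or 2 (-1.17 to -0.90). The fall was larger in Yorkshire by 1.29 ± 0.46 (adjusted p = 0.0406), a call lost under the 3 scalings (-1.02 to -0.89) and without any 1 array of these 2 days except Meishan GD15 replicate 1 or 2, Meishan GD26 replicate 1 or Yorkshire GD15 replicate 3 (-1.37 to -0.80 where lost). ABCD4, a lysosomal protein of vitamin B12 export, rose by 0.54 ± 0.19 in Yorkshire (adjusted p = 0.0305), lost without any array of the step but Yorkshire GD26 replicate 1 (0.38 to 0.60). In Meishan ABCD4 rose by 0.86 ± 0.25 (adjusted p = 0.0159), lost without Meishan GD15 replicate 3 or Meishan GD26 replicate 2 (0.64 to 0.69). At GD50 ABCD4 was lower in Yorkshire (-0.80 ± 0.23, adjusted p = 0.0078), a call lost under the 3 scalings (-0.47 to -0.29). ABCF1, which binds ribosomes and is no transporter, rose in Meishan by 0.48 ± 0.18 (adjusted p = 0.0453), lost without Meishan GD15 replicate 3 or Meishan GD26 replicate 2 or 3 (0.33 to 0.47). In Yorkshire its change was -0.56 (adjusted p = 0.103), and -0.77 without Yorkshire GD26 replicate 2 (adjusted p = 0.0472). ABCF1 was lower in Yorkshire at GD26 (-1.16 ± 0.24, adjusted p = 0.000989) and GD50 (-1.35 ± 0.24, adjusted p = 0.000273). Both calls held under the 3 scalings (-0.83 to -0.70 and -0.96 to -0.84). Its difference in change between GD15 and GD26 (-1.04 ± 0.34, adjusted p = 0.0271) was lost under them (-0.71 to -0.58). Of all tested probe sets, 42.5% were lower in Yorkshire at GD26 and 45.6% at GD50. Between GD26 and GD50 the fall of ABCG2 in Yorkshire was the only call among the 4 in either breed. With the mean of a gene's probe sets in place of the brightest, ABCD4 rose at this step by 0.73 in Yorkshire (adjusted p = 0.0235) and by 0.78 in Meishan (adjusted p = 0.0142), and in 1 fit over both breeds it rose in Meishan (0.73, adjusted p = 0.0408).

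**Figure D4:**
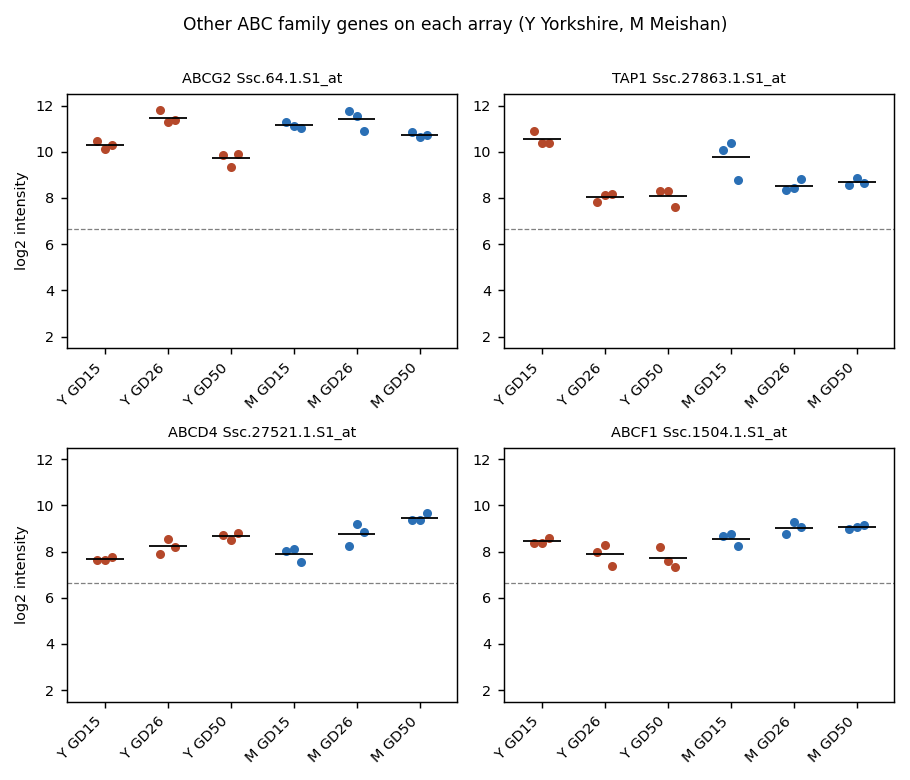
Log2 intensity (y axis) of ABCG2, TAP1, ABCD4 and ABCF1 on each array, for Yorkshire (Y, red) and Meishan (M, blue) by gestational day (x axis). Points are arrays, black bars group means (n = 3), and the dashed line an intensity of 100; ABCG2 peaks at GD26 in Yorkshire, and TAP1 is lower at GD26 than at GD15 on all Yorkshire arrays.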

How the data were processed

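The authors made the values from the intensity files of 18 arrays in R with affy and GCRMA, 2 Bioconductor packages (the submitters' notes also name RMA; versions are not given in the sources used here), and deposited log2 intensities for 24123 probe sets, 124 of them controls. The background correction and normalization could therefore not be varied. Arrays were grouped by the breed and day of their titles. Symbols came from the platform annotation, and 10099 probe sets had 1, 198 several and 13826 none. Probe sets above an intensity of 100 on at least 6 arrays (9320) were fitted with limma 3.58.1 in R 4.3.3, in 1 fit per breed for the 2 steps and in 1 fit over the 6 groups for the breeds and for the differences in change, with Benjamini-Hochberg adjustment over the 9320. The fit was tested on simulated data. The members and the lists were chosen with earlier results of these data known.

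All member probe sets are named. By value, the text names at most 4 called genes of the ABC family per step and breed, at most 3 genes of each partner list called in both breeds between GD15 and GD26 (largest mean change), and the 3 genes most like each member. A gene of a list is represented by its brightest probe set. The number of arrays limits the precision. Alternatives were other filters, adjustments, scalings, a floor, the mean per gene, a mean-variance trend, the replicate number as a block, 1 fit over both breeds and leaving out each array. No sequences or coordinates were used here. Figures were drawn with matplotlib 3.10.9.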

Additional observations from a re-analysis of the deposited data

Results flagged for a closer look

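The fitted change of ABCA1 between GD15 and GD26 had a call for a difference between the breeds, which did not hold under other processing. Tested directly, the Yorkshire change minus the Meishan change was -0.99 (limma, adjusted p = 0.033), from fitted changes of 1.51 in Yorkshire and 2.50 in Meishan. The Meishan values lay under an intensity of 100 on all 6 arrays and cannot be read as levels. With values under 100 set to 100 the Meishan change was 0 and the difference turned to 1.51 (adjusted p = 0.00013), and over the 3 scalings it was -0.64 to 0.28 with no call. The Yorkshire GD26 arrays stood apart from the rest in their medians and hybridization controls, so an array effect and a group effect cannot be told apart.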

How the results depend on the processing

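The numbers of transporter probe sets with a call were 5 in each breed for GD26 against GD15, 1 in each for GD50 against GD26, 1, 2 and 2 between the breeds at GD15, GD26 and GD50, and 1 and 0 for the differences in change. With Bonferroni adjustment they were 2 in Meishan and 0 in Yorkshire for GD26 against GD15, 1 at GD26 and 1 at GD50 between the breeds, and 0 for the first difference in change. With a fold change of at least 2, and with each of the 3 scalings (quantile, median centring, cyclic loess), the breeds gave 1 at GD26 and 1 at GD50, and the first difference in change gave 0. The mean per gene also gave 1 at GD26 and 1 at GD50. With no filter, GD50 against GD26 gave 2 in each breed, the breeds at GD50 gave 4 and the first difference in change 2, which it also gave with a minimum of 3 arrays and with a floor of 100. These equal counts were not the same results. With no filter the ABCA1 call was lost (adjusted p = 0.0664), and with the floor the 2 were ABCA1 with its sign turned and ABCC6. More or fewer probe sets are tested under other filters by construction; otherwise the cause was not tested. Leaving out 1 array gave 1 to 4 calls between the breeds at GD26 (4 without Yorkshire GD26 replicate 1), 1 to 3 at GD50 (3 without Yorkshire GD50 replicate 1) and 0 to 1 for the first difference in change. The ABCA1 difference in change (-0.99) turned sign to 0.28 with quantile scaling and to 1.51 with the floor, and its Meishan rise came to 0 with the floor. With the floor ABCC6 passed between the breeds at GD26 and in its first difference in change (-0.65 each). The rises of ABCB1, ABCB6 and ABCC6 in both breeds and the fall of ABCC6 kept their calls under all alternatives but Bonferroni. These calls were also kept with every single array left out. Those fits tested the same 9320 probe sets, so the filter was not applied again. ABCC6 had passed it with exactly the 6 arrays needed, those of GD26. Had the filter been applied again, ABCC6 would not have been tested without any 1 of these arrays. Its calls in those fits therefore depend on the fixed filter. The same replicate numbers did not pair the arrays: same-numbered deviations correlated at -0.348 to 0.328, 9 of 21 pairs over 0.1, and 8 of 21 deviations were closest to their own number. With the replicate block the count for GD26 against GD15 in Yorkshire was 6, through the second brightest probe set of ABCD3, and no other count changed. For the transporters, single results under other settings were the same in 803 cases, lost the call in 35, gained it in 7 and turned in 2. The 803 include results without a call that stayed without one, so they do not measure how many calls held.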
